A study of Rattus norvegicus with 8 samples.

Results

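The genes of voltage-gated calcium and sodium channels were examined in the dorsal hippocampus of drug-naive male rats whose fathers had or had not taken nicotine. Probe sets were chosen by gene symbol: those starting with Cacna1, Cacna2d, Cacnb or Cacng, and Scn with a number and a or b, with 1 probe set per gene, the brightest over all arrays. This gave 40 genes out of 19722 genes with 1 symbol on the array. They comprise 10 Cacna1 genes, 4 Cacna2d, 4 Cacnb, 8 Cacng, 10 sodium channel alpha genes and 4 beta genes. Scn2a is listed under its earlier symbol, Scn2a1, and was counted through its gene ID.

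Each of 8 Affymetrix arrays held total RNA of bilateral 1 mm3 micropunches from young adult male Sprague-Dawley offspring, and the labels give each array its own litter and father. They do not say whether an array held 1 son or a pool of brothers. The nicotine-sired group of 4 had fathers that self-administered intravenous nicotine at 0.03 mg/kg for 60 days. The saline-sired group of 4 had yoked saline fathers. No son of either group received a drug, and age beyond young adult is not given in the labels.

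Voltage-gated calcium channels open on depolarisation and let in the calcium that triggers transmitter release at presynaptic terminals and gene programmes at the soma. A Cacna1 gene encodes the pore, and Cacna2d and Cacnb genes encode the auxiliary subunits that bring it to the membrane and tune its gating. Most neuronal Cacng genes encode TARPs, which carry AMPA receptors to the synapse rather than modulate calcium channels. Sodium channel alpha genes encode the pore that generates the action potential, and the beta genes encode small cell-adhesion subunits that bind it.

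The markers of the labelled tissue were present. Prox1, the transcription factor of dentate granule cells, read from 7.99 to 10.42 log2 units over the arrays, and Wfs1, a CA1 marker, from 8.98 to 12.85, all above 6.30, the median of gene-class probe sets that served as the filter on dim signals. Choroid plexus and striatal markers stood apart on nicotine-sired 4, where Ttr read 13.07 against 5.54 to 5.86 on the other nicotine-sired arrays, while saline-sired 1 read 10.55. CA1 markers were higher in the nicotine-sired group, in 7 of 7 kept markers, with 1 past the threshold used below. The summed linear signal of the 8 on the array was 5275 to 17685 against 1223 to 5463. Dentate markers were lower in 5 of 6 kept, with 1 past that threshold, beside 0.884% of all kept probe sets called lower. The authors' deposited table calls 7 kept CA1 markers higher and 3 kept dentate markers lower, beside 4.83% and 3.81% of kept probe sets. The sum over the 9 dentate markers was 1959 to 4427 against 4711 to 7508. Spink8 of the first list and Dsp, Tdo2 and Lct of the second were under the filter and entered the sums only. Glial and vascular markers were also higher, in 9 of 9 oligodendrocyte, 7 of 7 oligodendrocyte precursor and 8 of 8 microglial genes. So were 8 of 8 endothelial and pericyte genes. Past the same threshold were 2 precursor and 1 endothelial or pericyte gene, beside 1.18% of all kept probe sets called higher. Of 8 astrocyte markers 6 were higher and 2 lower, with 0 past this threshold. At an unadjusted p under 0.05, 3 of them were higher, beside 13.9% of all kept probe sets. The summed signal of the precursor markers was 5289 to 6264 in nicotine-sired and 3997 to 4676 in saline-sired sons. The part of these markers in the channel values was not tested. In bulk punches, fewer cells of a type and less RNA per cell cannot be told apart.

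Of the 40 channel genes, 30 were kept by the filter and tested, and 10 were dimmer. Cacng2, which encodes stargazin, and Cacnb4, an auxiliary beta subunit of presynaptic calcium channels, fell in nicotine-sired sons, by 0.47 and 0.34 log2 units. No kept channel gene rose past an adjusted p of 0.05 in limma or in the authors' deposited table. In limma 2 were higher at an unadjusted p under 0.05. The 2 genes that fell are 6.67% of the 30, beside 2.06% of all kept probe sets called in either direction, 0.884% called lower and 1.18% called higher. At an unadjusted p under 0.05, 4 channel genes were lower and 2 higher, beside 10.1% and 13.9% of all kept probe sets. Without a filter 0.511% of probe sets were called, 0.191% lower and 0.32% higher. As a group, 16 genes were lower and 14 higher, where 45.7% of all kept probe sets were lower, with a median difference of -0.018, beside a median of 0.017 over all 15161 kept probe sets. The groups did not overlap in 4 of the 30 genes, or 13.3%, a share near the 14.3% of all kept probe sets. In 3 genes the nicotine-sired arrays lay below and in 1 above, beside 6.15% and 8.19% of all kept probe sets.

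**Figure D1:**
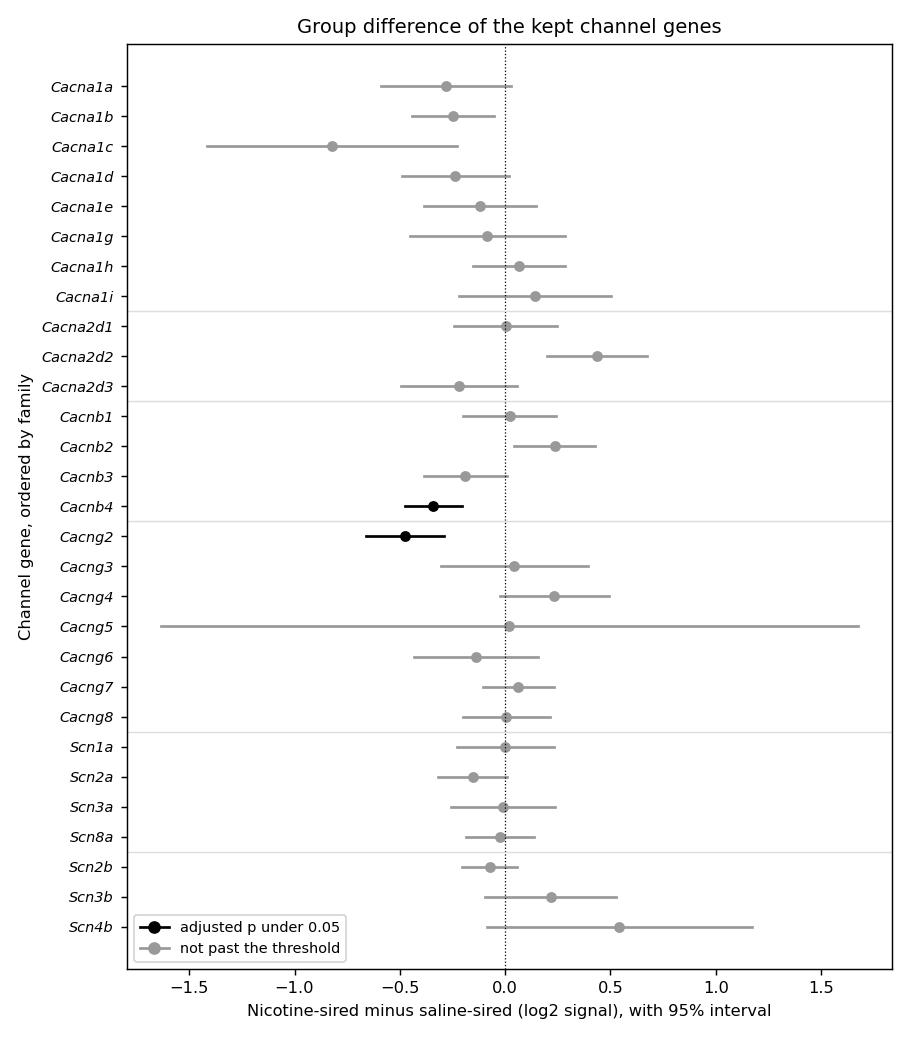
Difference in mean log2 signal, nicotine-sired minus saline-sired, for the kept channel genes reported by name, ordered by family, with 95% intervals from limma (4 arrays per group). Cacnb4 and Cacng2, in black, passed an adjusted p of 0.05, and Cacng5 has the widest interval, from -1.63 to 1.67.

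RefSeq promoter windows were available for 27 of the 40 genes. The windows of Cacng2, Cacna2d2 and Cacna1c are shown because these genes, with Cacnb4, were the kept channel genes whose nicotine-sired and saline-sired arrays did not overlap, a choice made after the values were seen. Each runs 5′ to 3′ on the gene's strand, from 250 bases before to 50 after the annotated start in GRCr8. The Cacng2 window is chr7:111577708-111578007 on the minus strand, that of Cacna2d2 chr8:116950856-116951155 on the plus strand and that of Cacna1c chr4:154051699-154051998 on the minus strand. Capitals mark the GC box GGGCGG on either strand.
Cacng2: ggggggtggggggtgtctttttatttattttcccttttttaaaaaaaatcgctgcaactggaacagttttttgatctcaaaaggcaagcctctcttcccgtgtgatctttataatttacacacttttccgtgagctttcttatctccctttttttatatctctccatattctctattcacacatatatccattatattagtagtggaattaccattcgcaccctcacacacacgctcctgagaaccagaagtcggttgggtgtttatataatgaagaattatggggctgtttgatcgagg
Cacna2d2: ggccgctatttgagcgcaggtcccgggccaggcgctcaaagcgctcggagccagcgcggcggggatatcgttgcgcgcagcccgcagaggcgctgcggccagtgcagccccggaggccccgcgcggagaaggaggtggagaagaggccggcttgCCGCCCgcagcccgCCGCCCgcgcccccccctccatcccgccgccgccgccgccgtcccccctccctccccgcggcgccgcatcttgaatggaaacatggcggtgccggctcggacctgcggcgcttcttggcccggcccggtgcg
Cacna1c: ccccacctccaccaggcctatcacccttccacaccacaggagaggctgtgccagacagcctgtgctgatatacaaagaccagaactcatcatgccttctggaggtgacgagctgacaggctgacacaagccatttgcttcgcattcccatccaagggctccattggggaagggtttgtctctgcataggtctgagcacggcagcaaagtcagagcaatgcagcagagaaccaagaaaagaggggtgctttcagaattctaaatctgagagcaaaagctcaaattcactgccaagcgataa
G and C bases made up 39.0% of the Cacng2 window, 77.0% of that of Cacna2d2 and 51.7% of that of Cacna1c, where the median of all windows was 51.7%. The GC box was found 2 times in the Cacna2d2 window and not in the others. It was present in 14 of the 27 channel genes with a window, which had 30 windows between them. Counted by window rather than by gene, it was in 33.1% of all 33469 windows of the same length. The cAMP response element TGACGTCA, which reads the same on both strands, was in 0 of the 27 genes and in 1.83% of all windows. The median share of G and C was 63.3% over the 20 kept channel genes with a window and 56.0% over the 7 dimmer ones, beside 51.7% over all windows. The part of G and C content in the matches was not tested. The matches describe letters in the windows only.

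Among the TARP genes, Cacng2 encodes stargazin, the founding member, known from the stargazer mouse, and it delivers AMPA receptors to the synapse. Cacng2 read 10.87, 10.96, 11.02 and 10.91 on saline-sired 1 to 4, and 10.39, 10.70, 10.48 and 10.31 on nicotine-sired 1 to 4. Every nicotine-sired array lay below every saline-sired one, with nicotine-sired 2 the nearest to them. Cacng2 fell by 0.47 ± 0.08 log2 units (SE, 1.39-fold, limma adjusted p = 0.0323, n = 4 per group). Its group means were 10.47 ± 0.17 and 10.94 ± 0.06 (SD).

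Cacng4, another TARP gene, read 9.74, 9.69, 9.65 and 10.08 on the saline-sired arrays, and 9.99, 10.03, 9.82 and 10.25 on the nicotine-sired arrays. Saline-sired 4 lay within the nicotine-sired values, so the groups overlapped. The difference was 0.23 ± 0.12 (limma adjusted p = 0.251). Cacng3 and Cacng8, the TARP genes most associated with the forebrain, differed by 0.04 ± 0.16 and 0.0065 ± 0.093, with 95% intervals from -0.31 to 0.39 and from -0.20 to 0.21. Cacng7 differed by 0.06 ± 0.07, and Cacng6, a muscle-type gamma subunit gene, by -0.14 ± 0.13. Cacng2 was therefore the 1 gene of 7 kept Cacng genes past the threshold, and whether its difference exceeded those of the other TARP genes was not tested.

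Cacng5 had the widest spread of all kept channel genes, and is described here because of it. Cacng5, a TARP gene enriched in CA2 in mouse, read 5.38, 9.58, 8.35 and 8.74 on nicotine-sired 1 to 4, and 7.74, 7.98, 7.86 and 8.38 on saline-sired 1 to 4. Nicotine-sired 1 was the lowest and nicotine-sired 2 the highest of the 8 arrays. The group means were nearly the same, with a difference of 0.02 ± 0.74. The SD was 1.83 among nicotine-sired and 0.28 among saline-sired arrays, and leaving out nicotine-sired 1 moved the difference to 0.90.

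Of the 5 kept markers of CA2 and CA3, Amigo2, Pcp4, Grik4 and Cpne4 had their lowest value on the same array, and Rgs14 did not. Cpne4 read 6.54 on nicotine-sired 1 and 9.81 to 10.76 on the others of its group, and Pcp4 9.69 against 11.65 to 12.03. Rgs14 read 9.75 on nicotine-sired 1, above the saline-sired arrays at 8.85 to 9.47. The mean centred signal of the 7 CA2 and CA3 markers was -1.08 on nicotine-sired 1, 0.39 on nicotine-sired 2 and 0.086 to 0.24 on the saline-sired arrays. Of the 5 markers kept, 3 were lower in nicotine-sired sons. The summed linear signal of all 7 ran from 2411 to 8550 in nicotine-sired and from 7273 to 8184 in saline-sired sons. It includes Iyd and Map3k15, which were under the filter. Nicotine-sired 1 was also extreme for other hippocampal markers. The mean centred signal of the 9 dentate markers was -0.95 on it and -0.12 to 0.54 on the other arrays. That of the 8 CA1 markers was 1.59 on it and -1.76 to 1.22 on the others. The part of any of these markers in the Cacng5 values was not tested.

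The Cacnb genes encode the cytoplasmic beta subunits, which bind the pore and bring it to the membrane. Cacnb4, disrupted in the lethargic mouse, read 10.23, 10.17, 10.20 and 10.23 on saline-sired 1 to 4, and 9.83, 9.78, 9.87 and 9.998 on nicotine-sired 1 to 4. The saline-sired values were tightly grouped, and all 4 nicotine-sired values lay below them. Cacnb4 fell by 0.34 ± 0.06 (1.27-fold, limma adjusted p = 0.0323).

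Cacnb2 read 10.57, 10.78, 10.77 and 10.82 on the saline-sired arrays, and 11.04, 11.12, 10.96 and 10.77 on the nicotine-sired arrays. Nicotine-sired 4 lay among the saline-sired values and the other 3 above them. The difference was 0.23 ± 0.09 (limma adjusted p = 0.143), and without nicotine-sired 4 it was 0.30 (adjusted p = 0.0495), past the threshold. Cacnb3 differed by -0.19 ± 0.09 and Cacnb1 by 0.02 ± 0.10. Of the 4 beta subunit genes, 2 were lower and 2 higher.

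**Figure D2:**
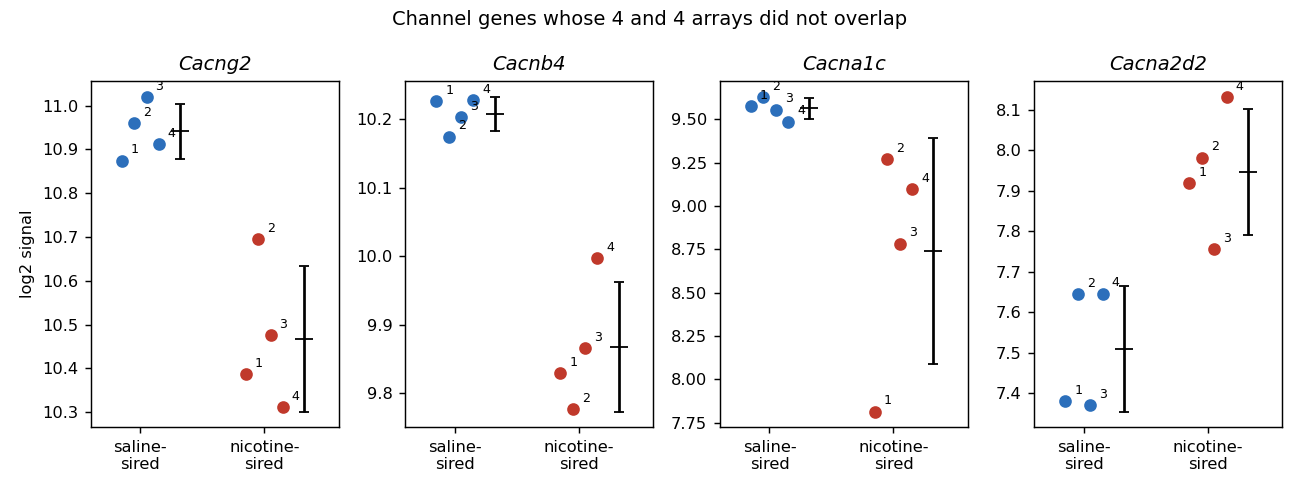
Log2 signal of the 4 kept channel genes whose groups did not overlap, with points for arrays, numbers for litters, and bars for the mean ± SD of 4 arrays; each panel has its own axis, which does not start at 0. Cacng2, Cacnb4 and Cacna1c lie lower in all 4 nicotine-sired arrays and Cacna2d2 higher, and nicotine-sired 1 is far below the others in Cacna1c, at 7.81.

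The calls of Cacng2 and Cacnb4 depended on which array was left out. Both kept their direction with each array left out, at -0.55 to -0.42 for Cacng2 and -0.38 to -0.31 for Cacnb4. Both had an adjusted p over 0.05 without nicotine-sired 1 or 3 or without any of the 4 saline-sired arrays, up to 0.105 without saline-sired 1, and both stayed below it without nicotine-sired 2 or 4. In the same fits the calls over all kept probe sets ran from 0 to 324 lower and from 0 to 413 higher. With nicotine-sired 1 and 4 both left out, a setting chosen after seeing the data, Cacnb4 fell by 0.39 (adjusted p = 0.0358) and Cacng2 differed by -0.36 (adjusted p = 0.0656). Without a filter, the adjusted p was 0.0422 for Cacng2 and 0.0501 for Cacnb4. With the litter number as a replicate block it was 0.0908 for both, and 0 of all kept probe sets were called.

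**Figure D3:**
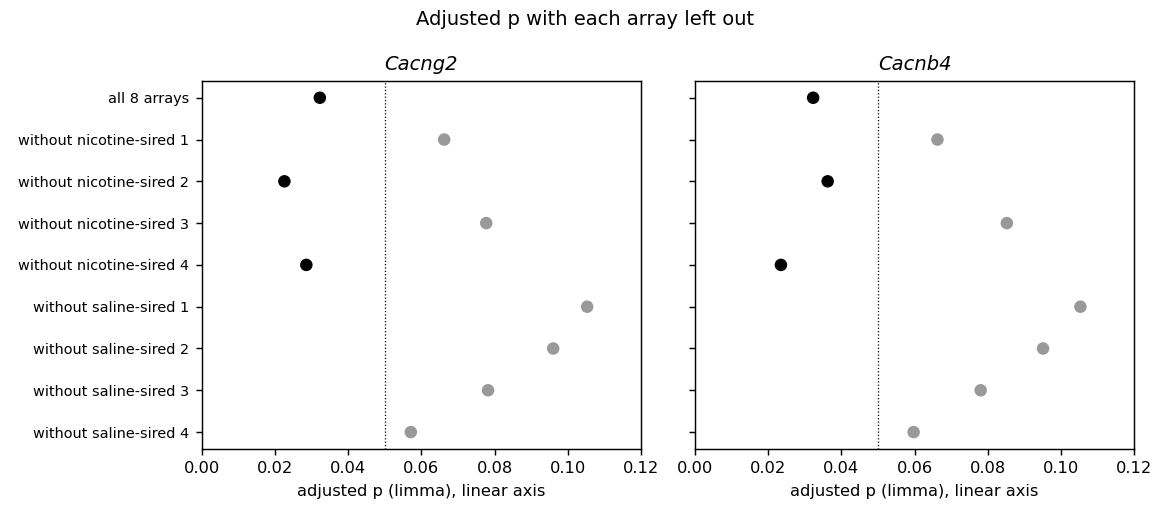
Adjusted p of Cacng2 and Cacnb4 in limma with all 8 arrays and with each array left out; the dotted line marks 0.05 and black points lie below it. Both genes stay below 0.05 without nicotine-sired 2 or nicotine-sired 4, and lie above it without each of the other 6 arrays.

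Cacna1 genes encode the pores. Cacna1c, the main L-type pore of the brain, read 9.58, 9.63, 9.56 and 9.49 on saline-sired 1 to 4, and 7.81, 9.27, 8.78 and 9.10 on nicotine-sired 1 to 4. All nicotine-sired values lay below all saline-sired ones, and nicotine-sired 1 was the lowest by a wide margin. The difference of -0.82 ± 0.26, the largest in size among the kept channel genes, did not pass in limma (adjusted p = 0.111). It was -0.51 without nicotine-sired 1, a change of over 1.5 times, with an adjusted p of 0.0746. The authors' deposited table gives it an adjusted p of 0.00872, and the fit with array weights 0.0468.

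Cacna1b, the pore of the N-type channel of presynaptic terminals, read 9.36, 9.59, 9.51 and 9.46 on the saline-sired arrays, and 9.18, 9.45, 9.20 and 9.10 on the nicotine-sired arrays. Nicotine-sired 2 lay among the saline-sired values and the other 3 below them. The difference was -0.25 ± 0.09 (limma adjusted p = 0.133). Cacna1a, the P/Q-type pore, differed by -0.28 ± 0.14 and Cacna1d, an L-type pore of neurons and endocrine cells, by -0.24 ± 0.11, both with overlapping groups. Cacna1e, the R-type pore, differed by -0.12 ± 0.12.

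The T-type pores open near the resting potential. Cacna1g differed by -0.09 ± 0.16, Cacna1h by 0.07 ± 0.10 and Cacna1i by 0.14 ± 0.16. The 95% interval of Cacna1i ran from -0.22 to 0.50. In the Cacna1 family 6 of 8 kept genes were lower, with a median of -0.18, and 0 passed in limma. At an unadjusted p under 0.05 there were 2 lower, Cacna1b and Cacna1c, beside 10.1% of all kept probe sets. The authors' deposited table calls 1 lower, beside 3.81%.

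The Cacna2d genes encode extracellular subunits that are targets of gabapentin in the case of Cacna2d1 and Cacna2d2. Cacna2d2 read 7.38, 7.64, 7.37 and 7.65 on saline-sired 1 to 4, and 7.92, 7.98, 7.75 and 8.13 on nicotine-sired 1 to 4. Each nicotine-sired array was above each saline-sired array. The difference of 0.44 ± 0.11 (1.35-fold) had an adjusted p of 0.0639 in limma, just over the threshold, and from 0.0524 to 0.196 over 17 alternatives. The authors' deposited table gives it an adjusted p of 0.238.

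Cacna2d3 read 11.03, 11.19, 11.18 and 11.16 on the saline-sired arrays, and 10.63, 11.24, 10.74 and 11.07 on the nicotine-sired arrays. Nicotine-sired 1 and 3 were low, and nicotine-sired 2 was the highest of all 8. Its difference was -0.22 ± 0.12 (limma adjusted p = 0.305), while Cacna2d1 differed by 0.0035 ± 0.11.

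Of the sodium channel genes, 8 were kept, 4 alpha and 4 beta. In limma 0 were past the threshold and 0 had an unadjusted p under 0.05. The authors' deposited table calls 0 at an adjusted p under 0.05. Scn2a, an alpha subunit of axon initial segments and unmyelinated axons, read 11.82, 11.85, 11.92 and 11.81 on the saline-sired arrays, and 11.62, 11.88, 11.75 and 11.54 on the nicotine-sired arrays. Nicotine-sired 2 lay among the saline-sired values and the other 3 lay below them. The difference was -0.15 ± 0.07 (limma adjusted p = 0.233).

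Scn8a, the alpha subunit that predominates at mature initial segments and nodes, read 11.37, 11.53, 11.47 and 11.50 on the saline-sired arrays, and 11.50, 11.53, 11.49 and 11.24 on the nicotine-sired arrays. Only nicotine-sired 4 stood lower. Its difference was -0.025 ± 0.072, with a 95% interval from -0.19 to 0.14. Scn1a, whose protein is prominent in inhibitory interneurons, differed by 0.00093 ± 0.10 and Scn3a, most abundant before birth, by -0.0098 ± 0.11. For the alpha subunits, the intervals reached no further than -0.32 and 0.24 log2 units.

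The beta subunit genes varied more in the nicotine-sired group, as did most kept channel genes (26 of 30). Scn3b read 12.34, 12.47, 12.35 and 12.42 on saline-sired 1 to 4, and 12.93, 12.64, 12.73 and 12.14 on nicotine-sired 1 to 4. Nicotine-sired 1 to 3 lay above all saline-sired arrays and nicotine-sired 4 below all of them. The difference was 0.22 ± 0.14 (limma adjusted p = 0.367). Without nicotine-sired 4 it was 0.37 with an adjusted p of 0.0286, past the threshold.

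Scn4b, known for its part in resurgent sodium current and abundant in striatum, read 8.95, 8.58, 8.38 and 9.90 on nicotine-sired 1 to 4, and 8.22, 8.53, 8.37 and 8.53 on saline-sired 1 to 4. Nicotine-sired 4 was the highest array, and nicotine-sired 3 lay within the saline-sired range. The difference of 0.54 ± 0.28 (limma adjusted p = 0.267) was 0.23 without nicotine-sired 4. The mean centred signal of 8 striatal markers was 2.15 on that array and -0.55 to -0.12 on the other 7. Of the 7 striatal markers kept, 7 were higher in nicotine-sired sons, and Tac1 was under the filter. The summed linear signal of all 8, Tac1 included, ran from 1097 to 6914 in nicotine-sired and from 1099 to 1477 in saline-sired sons. The part of these markers in Scn4b was not tested. Scn2b differed by -0.07 ± 0.06.

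**Figure D4:**
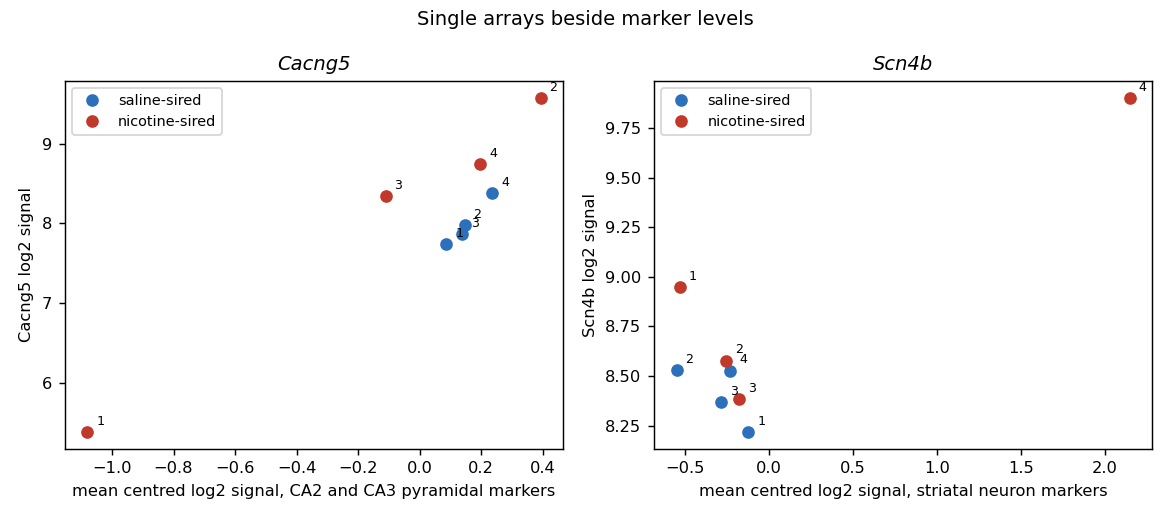
Log2 signal of Cacng5 against the mean centred log2 signal of 7 CA2 and CA3 markers, and of Scn4b against that of 8 striatal markers, with a point for each array and its litter number. Nicotine-sired 1 lies at 5.38 for Cacng5 with a marker value of -1.08, and nicotine-sired 4 at 9.90 for Scn4b with a marker value of 2.15.

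The spread within groups differed for these genes. The SD was larger among nicotine-sired than among saline-sired arrays in 26 of the 30 kept channel genes, beside 59.9% of all kept probe sets. The median SD was 0.19 in nicotine-sired and 0.099 in saline-sired arrays, where over all kept probe sets it was 0.13 and 0.11. Nicotine-sired 4 was the lowest of the 8 arrays in 15 of the 30 genes, beside 19.5% of all kept probe sets. Nicotine-sired 1 was the highest in 8 genes, or 26.7%, near the 23.3% of all kept probe sets. In 7 genes, Cacna1e, Cacna1g, Cacna1i, Cacna2d1, Cacnb1, Cacng3 and Scn3b, nicotine-sired 1 was the highest and nicotine-sired 4 the lowest, an order that 5.48% of all kept probe sets shared.

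**Figure D5:**
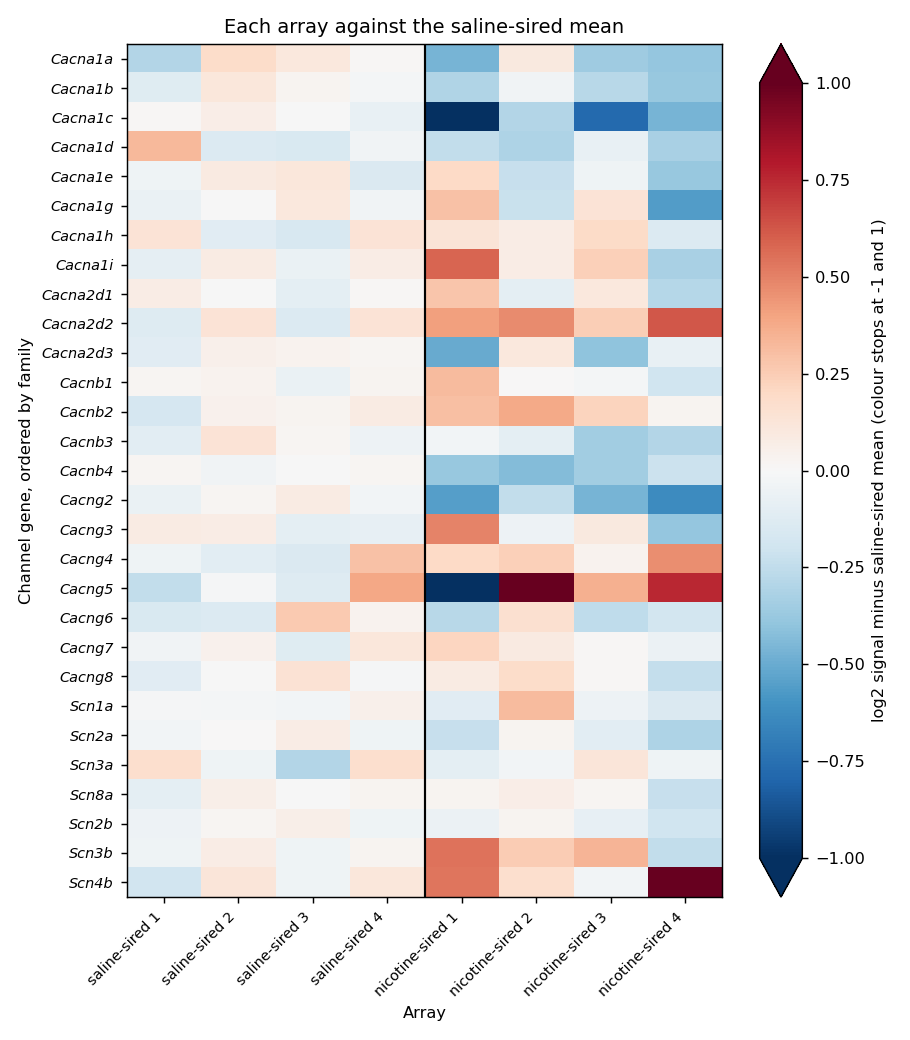
Log2 signal of each array minus the saline-sired mean of the gene, for the kept channel genes reported by name, ordered by family; red is higher, blue is lower, and colours stop at -1 and 1. Saline-sired columns are pale, and nicotine-sired 4 is below the saline-sired mean in most genes. Rows of Cacng2, Cacnb4 and Cacna1c are blue on all 4 nicotine-sired arrays. Cacna1b, Cacna1d and Cacnb3 also lie below the saline-sired mean on all 4.

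The 10 channel genes under the filter are mostly those of other tissues. The lowest of their means over the arrays was 4.64, and that of Cacng6, the dimmest gene kept, was 6.50. They include Cacna1s and Scn4a of skeletal muscle, Cacna1f and Cacna2d4 of the retina, Cacng1 of muscle, Scn9a, Scn10a and Scn11a of sensory neurons, and Scn7a, a sodium-level sensor. The mean was lower in nicotine-sired sons in 9 of these 10, beside 62.5% of all probe sets under the filter. Cacna1s and Cacna2d4 had groups that did not overlap, where 5.56% of probe sets under the filter lay lower without overlap. The means were 5.38 for Cacna1f, 5.92 for Cacng1, 5.64 for Scn9a, 4.64 for Scn10a and 5.60 for Scn11a. Scn7a was the 1 gene with a higher mean, by 0.20 ± 0.14. In the fit without a filter Cacna1s and Cacna2d4 differed by -0.26 ± 0.10 and -0.32 ± 0.10, with limma adjusted p-values of 0.195 and 0.141, and Scn4a differed by -0.44 ± 0.14 (0.155). The authors' deposited table calls Cacna2d4 and Scn4a lower, with adjusted p-values of 0.0145 and 0.0309, where it calls 2.51% of all its rows lower. The means of these genes over the arrays were 5.29 and 5.44. The median of the antigenomic background probes was 4.32 to 4.53 over the arrays.

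Genes whose products bind or work beside these channels were counted from lists chosen with earlier results of these data known. Of 14 sodium channel partners of the axon initial segment and node, 10 were lower and 4 higher, with a median of -0.14, and 1 passed, beside the 0.884% of all kept probe sets called lower. At an unadjusted p under 0.05 there were 4 lower and 2 higher, beside 10.1% and 13.9% of all kept probe sets. The authors' deposited table calls 2 lower and 0 higher, beside 3.81% and 4.83% of kept probe sets. Fgf14, an intracellular factor that binds sodium channel alpha subunits, read 10.64, 10.50, 10.66 and 10.46 on the saline-sired arrays, and 10.21, 10.17, 10.34 and 10.12 on the nicotine-sired arrays. The groups did not overlap, and Fgf14 fell by 0.36 ± 0.07 (limma adjusted p = 0.0398). Ank2, an ankyrin, differed by -0.27 ± 0.06 (adjusted p = 0.0639). Ank3, the ankyrin that anchors sodium channels at the initial segment, differed by -0.0075 ± 0.050.

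Of 17 kept calcium channel partners at the membrane and active zone, 11 were lower and 6 higher, with a median of -0.087, and 2 fell, beside the same 0.884%. At an unadjusted p under 0.05 there were 6 lower and 1 higher, beside 10.1% and 13.9% of all kept probe sets. The authors' deposited table calls 2 lower and 1 higher, beside 3.81% and 4.83% of kept probe sets. Rimbp2, which links release sites to calcium channels, read 10.49, 10.32, 10.39 and 10.28 on the saline-sired arrays, and 9.81, 9.99, 9.96 and 9.83 on the nicotine-sired arrays, without overlap. It fell by 0.47 ± 0.07 (limma adjusted p = 0.0251), and Stx1a, a syntaxin that binds N-type and P/Q-type channels, by 0.53 ± 0.10 (0.0395). With each array left out in turn, Rimbp2 stayed past the threshold in 5 of 8 fits, all but those without saline-sired 1, 2 or 3. Stx1a and Fgf14 each did so in 2 of 8, those without nicotine-sired 2 or 4, and all 3 genes had an adjusted p of 0.0908 with the litter number as a block. Rrad, Rem1 and Stac3 of that list were under the filter. Of 18 kept genes of calcium stores, pumps and exchangers, 9 were lower and 9 higher (median -0.023), with 0 past the threshold. At an unadjusted p under 0.05 in limma 5 were lower and 4 higher, beside the same 10.1% and 13.9%. The authors' deposited table calls 2 in each direction at its adjusted p, beside the same 3.81% and 4.83%. Ryr2, a calcium release channel, differed by -0.66 ± 0.16 and Itpr1, the inositol trisphosphate receptor, by 0.52 ± 0.14, with limma adjusted p-values of 0.0607 and 0.0778.

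Among sodium leak and pacemaker channels were 4 of 6 kept genes lower (median -0.10) and 0 past the threshold. The authors' deposited table calls 0 at its adjusted p, and in limma 2 were lower at an unadjusted p under 0.05. Those 2 were Unc80, a subunit of the sodium leak channel, at -0.16 ± 0.06, and the pacemaker channel gene Hcn3, at -0.30 ± 0.11. AMPA receptor subunits and their auxiliary subunits other than TARPs had 3 of 8 genes lower and 5 higher (median 0.049). In limma 0 were past the threshold and 0 had an unadjusted p under 0.05. The authors' deposited table calls 0 at its adjusted p. Gria4 differed by 0.19 ± 0.11 and Shisa9 by -0.17 ± 0.15. These counts leave out Gria2, an AMPA receptor subunit gene that was listed but not matched to a probe set by its symbol. The same held for Calm3 of the calcium channel partners and Fam155a of the sodium leak genes. Over all kept probe sets 24.0% had an unadjusted p under 0.05, 10.1% lower and 13.9% higher. Of 7 general neuronal markers 7 were lower (median -0.17), with a summed linear signal of 31040 to 35843 in nicotine-sired and 35270 to 37026 in saline-sired sons, and their part in the lower channel and partner genes was not tested.

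The authors' deposited table calls 3 of the 30 kept channel genes lower and 0 higher at its adjusted p of 0.05, beside 3.81% and 4.83% of the 15161 kept probe sets, or 8.63% in either direction. Over all its rows the shares were 2.51%, 2.29% and 4.81%. The 3 were Cacng2, Cacnb4 and Cacna1c, where the authors' deposited table gives 0.0235, 0.0132 and 0.00872 as their adjusted p. Its ratios of nicotine over saline were 0.720, 0.789 and 0.566. Cacng2 and Cacnb4 were thus called by both tests, on the same array values, and Cacna1c by the authors' alone.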

How the data were processed

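The authors deposited log2 signals for 36685 probe sets on 8 arrays in a pair of tables whose values are identical, per the file headers; the submitters' processing notes name MAS5, without saying which step it was used for, and the sources used here describe no other step. The authors' deposited analysis table also holds, per the file headers, p-values with a step-up adjustment, a linear ratio and a signed fold score; the model behind them is not given. Values were used as deposited, without a pseudocount.

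Of 30323 gene-class probe sets, 15161 had a mean over all arrays above the median (6.30) and entered limma (version 3.58.1, R version 4.3.3) with lmFit and a trended eBayes (two-sided, Benjamini-Hochberg over all 15161). Errors after differences are standard errors. The number of arrays limits precision. The fit was tested on simulated data. Symbols were updated by gene ID through RefSeq (GRCr8), which also supplied the promoter windows. Of the channel genes 2 enter the counts and are not reported by name here. Litter numbers were not treated as pairs, and whether they follow the yoking of the fathers was not tested. The channel genes and lists were chosen with earlier results of these data known. Values on every array were planned for channel genes past the threshold, those with an unadjusted p under 0.01 and no overlap, and the 2 kept members of each family with the smallest p; of partner lists, those past the threshold and the 2 with the smallest p were named. Cacng5, Ank3 and Scn4a were named after their values were seen. Alternatives changed the filter, scaling, pseudocount, variance trend, array weights, litter block, probe set choice and arrays.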

Additional observations from a re-analysis of the deposited data

Results flagged for a closer look

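Each of the 40 channel genes gave 2 groups of 4 arrays, 80 in all. In 2 of these a single array was remote from the rest of its group, and about 1 in 20, or 4, would be so by chance. Scn8a read 11.24 on nicotine-sired 4, below the other nicotine-sired arrays at 11.49 to 11.53. Cacnb1 read 10.27 on saline-sired 3, below the other saline-sired arrays at 10.35 to 10.36.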

How the results depend on the processing

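The limma counts over all kept probe sets, 134 lower and 179 higher, were 58 and 97 with no filter, 99 and 82 with a stricter filter, 516 and 685 with array weights, and 91 and 199 with median centring. Without nicotine-sired 1 and nicotine-sired 4, a setting added after seeing the data, 152 were lower and 85 higher. With each array left out they ran from 0 to 324 lower and from 0 to 413 higher. Among the channel genes the 2 lower calls became 1 with no filter, 1 without nicotine-sired 1 and 4, and from 0 to 2 with each array left out. The 0 higher calls became 1 without nicotine-sired 1 and 4 (Scn3b, adjusted p = 0.0478), and from 0 to 2 with each array left out. The median over the channel genes, -0.018, ran from -0.084 to 0.021 with each array left out and was 0.022 with median centring. Cacng2 and Cacnb4 were each past the threshold in 10 of 18 alternatives, with adjusted p from 0.0141 to 0.105, Rimbp2 in 14 (0.0125 to 0.0908), Stx1a in 9 (0.0162 to 0.111) and Fgf14 in 7 (0.0289 to 0.124).

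Of the 30 kept channel genes 20 kept their direction in every alternative that gave them a value, and 501 of 535 values had the sign of the reported one. The stricter filter gave no value for Cacna1g, Cacna2d2, Cacng5, Cacng6 and Scn3a. With median centring Scn3a was 0.030 and Scn8a 0.014, with quantile normalization Cacng5 was -0.0074 and Scn1a -0.055, and with array weights Cacng8 was -0.0033 and Scn3a 0.11. Without nicotine-sired 1 and 4, Cacnb1 was -0.012, Scn3a 0.050 and Scn8a 0.047. With each array left out, the sign turned in Cacna1g (-0.21 to 0.071), Cacna1i (-0.0039 to 0.30), Cacna2d1 (-0.088 to 0.098), Cacnb1 (-0.076 to 0.097), Cacng3 (-0.11 to 0.18), Cacng5 (-0.50 to 0.90), Cacng8 (-0.051 to 0.090), Scn1a (-0.11 to 0.051), Scn3a (-0.11 to 0.046) and Scn8a (-0.057 to 0.042). The cause was not tested.

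With the litter number as a replicate block, 0 probe sets were past the threshold in either direction, and the adjusted p of Cacng2 and Cacnb4 was 0.0908. Deviations of same-numbered arrays had correlations of -0.141, 0.181, -0.052 and -0.168 over 15161 probe sets, without differently numbered pairs for comparison. For single genes the block narrowed or widened the standard error, from 0.14 to 0.080 for Cacna1a and from 0.098 to 0.11 for Cacna1h. The labels give each array its own litter and father, and whether same-numbered arrays share more than a number was not tested.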

Other observations

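A further probe set was present for 2 channel genes. The dimmer probe set of Scn3a differed by -0.025 ± 0.17 log2 units, close to the -0.0098 of the brighter one. A probe set shared by Cacng8 and another symbol differed by 0.0069 ± 0.11, beside 0.0065 for the Cacng8 probe set used. Neither pair disagreed by more than its error.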
